A study of Mus musculus with 6 samples.

Results

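The transcription factor genes Twist1, Twist2, Tcf12, Msx1, Msx2, Alx1, Alx4, Prrx1 and Prrx2, which act in the mesenchyme of the skull vault, its sutures and the face, were followed in RNA-seq of mouse calvaria, the flat bones of the skull. They were chosen by name, and all 9 were found among the 23358 gene entries of the table and were abundant enough to test among 16089 genes. The calvaria came from mice 2 to 3 days old and were digested for 20 minutes in collagenase type II (2 mg/ml) with trypsin (0.005%) before freezing. The comparison is between 3 libraries of a conditional knockout of Ezh2, the methyltransferase of the Polycomb repressive complex PRC2 (label Ezh2_cKO-Osx, here cKO 8, cKO 10 and cKO 37 after the numbers in the titles), and 3 wild-type libraries (Ezh2_WT-Osx, here WT 14, WT 27 and WT 29). Osx, an older name of the osteoblast factor gene Sp7, stands in both labels. The sources used here do not say whether WT mice carry a Cre transgene, which part of Ezh2 is deleted, what sex or strain the mice were, or whether each library is a separate animal. The p-values therefore cover the variation among 6 libraries, which may be partly technical.

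Twist1 and Twist2 are basic helix-loop-helix (bHLH) proteins that bind DNA as dimers, among others with the E protein encoded by Tcf12, and Twist1 holds back osteoblast differentiation. The other genes encode homeodomain proteins. Msx1 and Msx2 respond to BMP signals at the edges of growing bones, Alx1 and Alx4 pattern the facial and frontal mesenchyme, and Prrx1 and Prrx2 mark early limb and craniofacial mesenchyme and suture progenitors. Loss of TWIST1 or TCF12 function and gain of MSX2 function cause craniosynostosis, the early fusion of sutures. Loss of ALX4 function leaves openings in the parietal bones. CpG-rich promoters of developmental transcription factor genes are a known class of PRC2 sites.

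Gene totals ran from 60449016 to 95439578 counts per library. All 9 osteoblast markers had counts, and their summed level was 132200 to 179500 CPM (counts scaled to a common library size by TMM) in WT and 98620 to 134500 in cKO. Most of that sum came from Col1a1 (mean 81440 CPM in WT and 57138 in cKO) and Col1a2 (61619 and 51768). Directions were mixed: Ibsp, Spp1 and Dmp1 were higher on average in cKO (log2 fold change 0.34, 0.23 and 0.16), and the rest of the list was lower. Of these 9 markers, 1 fell (11.1%) and 8 did not pass an adjusted p below 0.05. Of all genes tested, 12.4% passed in either direction and 6.45% passed with cKO lower, and the groups did not overlap for 34.6%. The marker that fell was Sp7, the gene that Osx names. It was 216, 201 and 253 CPM in WT and 184, 167 and 169 CPM in cKO (log2 fold change -0.37 ± 0.09, edgeR adjusted p = 0.0211). Every cKO library lay below every WT library. Ezh2 itself was 20.9 ± 0.68 CPM in WT and 19.9 ± 0.69 in cKO (mean ± SD, n = 3 per group, edgeR adjusted p = 0.507), so whole-gene counts do not check the labels. Of the other marker lists fixed for tissues that a dissection could carry along, 2 separated the groups in summed level. The 6 skeletal muscle markers were 10.2 to 11.5 CPM in WT and 11.8 to 12.9 in cKO. Most of that sum came from Des (6.87 ± 0.533 CPM in WT and 8.23 ± 0.696 in cKO, edgeR adjusted p = 0.144). Acta1 was also higher on average in cKO, while Tnnt3, Ckm, Myog and Myh3 were not. The 6 brain and meninges markers were 18 to 19.9 CPM in WT and 13.8 to 16.5 in cKO. In the latter list the neuronal tubulin gene Tubb3 fell (9.79 ± 1.44 against 5.75 ± 1.16 CPM, adjusted p = 0.0131). Among 6 macrophage and osteoclast markers, Acp5 and Csf1r fell (edgeR adjusted p = 0.0172 and 0.0191). That is 33.3% of the list, beside 6.45% of all genes tested that were lower. Cd68, Emr1 and Mmp9 were lower on average in cKO but did not pass (edgeR adjusted p = 0.107, 0.179 and 0.201). Ctss was higher on average in cKO (log2 fold change 0.26, edgeR adjusted p = 0.405). The summed level of this list overlapped between groups (1921 to 2818 CPM in WT, 1446 to 1924 in cKO). The summed levels of the 6 cartilage, 5 skin epithelium, 7 red blood cell, 6 neutrophil and 5 endothelium markers overlapped between groups, and none of those genes that could be tested passed. The cartilage sum varied most, from 2248 to 8343 CPM in WT and 848.8 to 6515 in cKO, while the skin sum was at most 5.15 CPM and the red blood cell sum at most 10.3. No marker found was at 0 in all libraries. In bulk tissue, fewer cells of a type and less RNA per cell cannot be told apart, and the part of these marker differences in the results below was not tested.

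Promoter sequences were taken from RefSeq (GRCm38.p6, the same assembly as mm10) for 7 of the 9 genes, Twist1, Twist2, Tcf12, Msx1, Msx2, Prrx1 and Prrx2, as the 250 bases before the start site. These 7 genes had 9 promoter entries, and only the most upstream entry of each gene was used. The pairs Twist1 and Twist2, far apart in level, and Msx1 and Msx2, close in level, are printed 5′ to 3′. Capitals mark the E-box CANNTG, the class of site that bHLH dimers bind, and the homeodomain core TAATTA. Both motifs read the same on either strand.
Twist1 (chr12:33957421-33957670, plus strand): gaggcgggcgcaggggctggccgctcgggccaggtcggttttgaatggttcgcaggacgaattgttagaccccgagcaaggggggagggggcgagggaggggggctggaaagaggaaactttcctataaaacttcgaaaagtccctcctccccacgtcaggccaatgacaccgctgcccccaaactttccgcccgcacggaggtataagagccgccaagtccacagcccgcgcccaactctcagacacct
Twist2 (chr1:91801211-91801460, plus strand): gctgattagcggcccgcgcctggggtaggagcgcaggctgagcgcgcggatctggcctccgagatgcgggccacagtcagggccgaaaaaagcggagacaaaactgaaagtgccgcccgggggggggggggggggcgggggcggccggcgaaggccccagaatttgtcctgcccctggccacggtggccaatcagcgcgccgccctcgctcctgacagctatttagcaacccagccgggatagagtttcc
Msx1 (chr5:37824586-37824835, minus strand): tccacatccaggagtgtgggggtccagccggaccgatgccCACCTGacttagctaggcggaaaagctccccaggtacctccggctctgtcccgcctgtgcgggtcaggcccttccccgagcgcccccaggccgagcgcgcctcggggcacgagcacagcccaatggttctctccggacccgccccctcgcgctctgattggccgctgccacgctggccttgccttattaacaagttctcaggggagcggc
Msx2 (chr13:53472781-53473030, minus strand): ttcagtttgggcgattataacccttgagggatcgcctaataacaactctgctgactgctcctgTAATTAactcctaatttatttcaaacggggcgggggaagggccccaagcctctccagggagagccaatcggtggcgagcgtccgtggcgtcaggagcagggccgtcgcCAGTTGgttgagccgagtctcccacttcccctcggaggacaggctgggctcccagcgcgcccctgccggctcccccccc

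The promoters were mostly CpG-rich. Twist1 held 18 CpG dinucleotides, Twist2 23, Msx1 20, Msx2 16, Tcf12 38 and Prrx2 21, each above the median of 6 over the 32851 promoters in the table, whereas Prrx1 held 4. CANNTG stood in 3 of the 7 (Tcf12, Msx1 and Msx2) and in 66.2% of all promoters. TAATTA stood in 2 of the 7 (Msx2 and Prrx1) and in 4.84% of all promoters. These are matches of letters within the window and nothing more.

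Levels between genes were compared as RPKM, the deposited values scaled to gene length and library size. In WT, Prrx2 was highest at 60.7 ± 5.55 RPKM (mean ± SD, n = 3), followed by Twist1 at 40 ± 0.518, Prrx1 at 35.9 ± 1.51, Alx4 at 29.7 ± 2.11 and Tcf12 at 27.4 ± 1.05. The next 4 genes were several-fold lower, with Msx2 at 5.19 ± 1.04, Msx1 at 5.03 ± 1.54, Twist2 at 3.38 ± 0.287 and Alx1 at 2.95 ± 0.491 RPKM. The WT ranges of neighbours in this order overlapped for Alx4 and Tcf12, for Msx2 and Msx1, and for Twist2 and Alx1, and did not overlap for the other neighbours. Tcf12 was 5.28 times as high as the next gene, Msx2, the widest step in the order. Alx1 moved in cKO from last place to the same range as the Msx genes (6.38 ± 1.1 RPKM, beside 6.05 ± 0.68 for Msx1 and 5.69 ± 0.242 for Msx2), above Twist2 at 3.03 ± 0.716. The order of the 3 highest genes was the same in both groups, although the cKO ranges of Twist1 and Prrx1 overlapped.

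**Figure D1:**
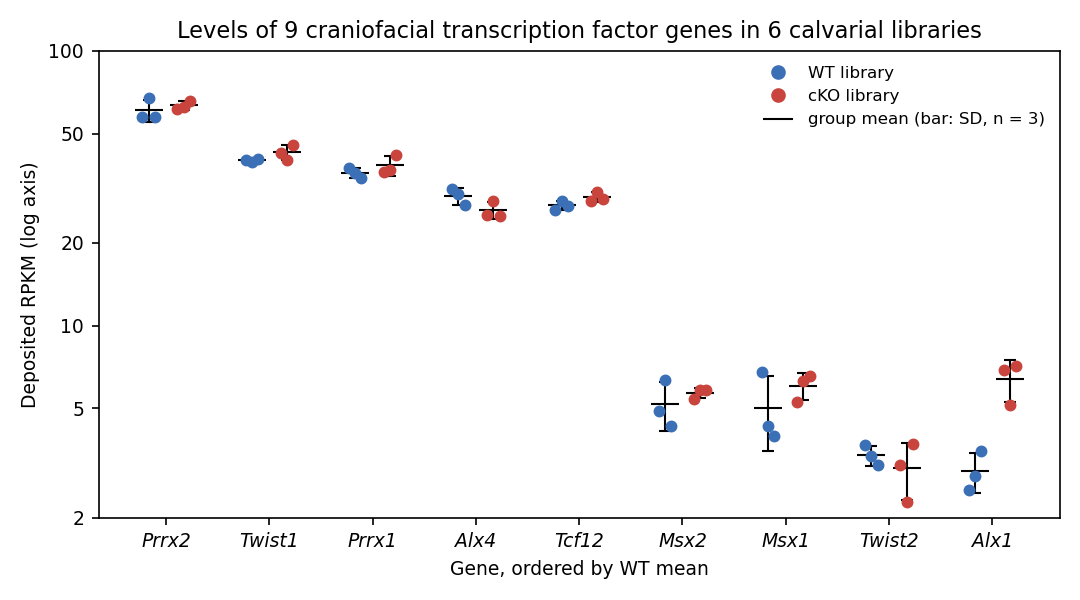
Deposited RPKM (log axis) of the 9 genes in each library, ordered by WT mean; points are libraries (blue WT, red cKO), horizontal marks group means and bars the SD (n = 3). The 5 genes from Prrx2 to Tcf12 lie above 25 RPKM in all 6 libraries and the other 4 below 8, and for Alx1 the cKO points lie above all WT points.

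The comparison of cKO with WT asked which of these genes differ in calvarial bone labelled as a conditional knockout of Ezh2. Alx1 rose in cKO, and none of the other 8 genes passed the threshold of an adjusted p below 0.05 (edgeR quasi-likelihood test, adjusted over all 16089 genes). That is 1 of 9 called (11.1%), beside 12.4% of all genes tested, 5.96% higher and 6.45% lower in cKO. The share over all genes was smaller when most single libraries were left out, at 3.59% without cKO 8, 4.8% without WT 29, 6.91% without WT 14, 7.16% without WT 27 and 8.16% without cKO 10, and was 12.2% without cKO 37. With upper-quartile scaling the higher calls over all genes made up 60.9% of calls against 48% with TMM, and the calls among the 9 genes were the same. No gene of the 9 fell with edgeR, DESeq2 or limma voom, and 1 of them, Alx4, was lower at an unadjusted p below 0.05. Groups did not overlap for 3 of the 9 (33.3%: Alx1 and Tcf12 with cKO higher, Alx4 with cKO lower), beside 34.6% of all genes tested (17.2% with cKO higher, 17.4% with cKO lower), so the share is near that of all genes. The median log2 fold change of the 9 genes, cKO over WT throughout, was 0.09, against 0.01 over all genes tested.

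**Figure D2:**
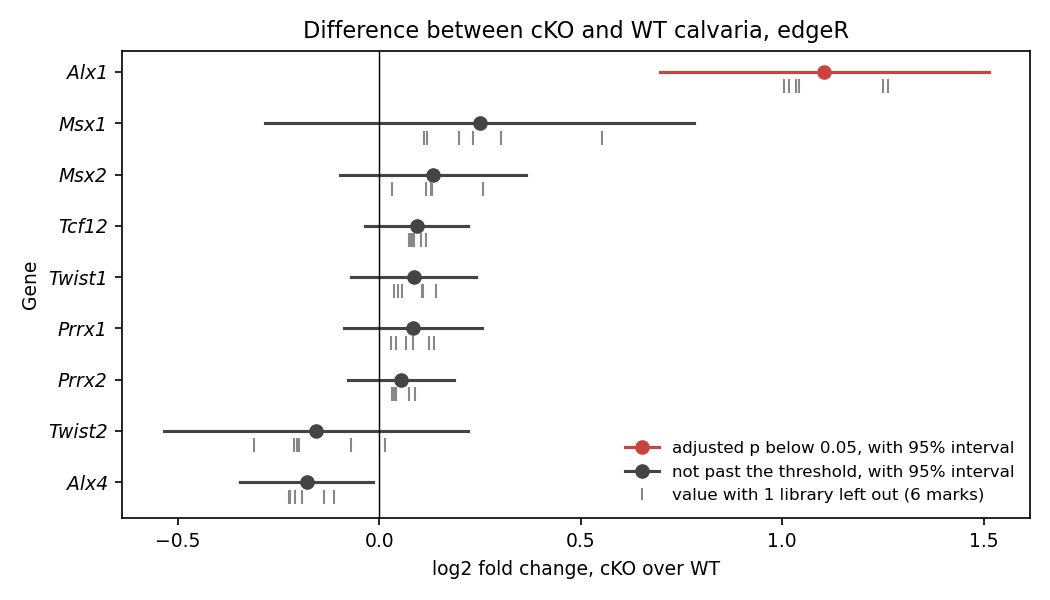
Log2 fold change, cKO over WT, of the 9 genes with its 95% interval (red: adjusted p below 0.05, edgeR); grey ticks under each gene are the values with each of the 6 libraries left out. The Alx1 ticks run from 1.01 to 1.26, and the Msx1 ticks from 0.11 to 0.55.

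The bHLH genes differed little between the groups. Twist1 (chromosome 12, 33957671 to 33959831) was 90.6 CPM in WT 14, 82.4 in WT 27 and 90.6 in WT 29. It was 98.1 CPM in cKO 8, 85 in cKO 10 and 96.6 in cKO 37, the library order kept from here on. The groups overlapped through cKO 10, which lay below 2 of the WT libraries. Its log2 fold change was 0.09 ± 0.07 (standard error, adjusted p = 0.462), with a 95% confidence interval of 0.953 to 1.18 as a fold.

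Twist2 (chromosome 1, 91801477 to 91848027), the close relative of Twist1 that acts in dermis and bone, was 6.67, 5.64 and 5.59 CPM in the WT libraries and 5.74, 3.9 and 6.37 CPM in the cKO libraries. The low value of cKO 10 set the direction of the mean difference: the log2 fold change was -0.16 ± 0.17 (adjusted p = 0.586) and became 0.015 without cKO 10. Twist2 had the fewest counts of the 9, with 242 to 514 per library, and its interval ran from 0.69 to 1.16 as a fold. The coefficient of variation between libraries was 10.2% in WT and 24% in cKO, above the 6.56% and 7.47% that counting alone gives.

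Tcf12 (chromosome 9, 71844252 to 72111819) was 185, 185 and 189 CPM in WT and 203, 202 and 191 CPM in cKO. All cKO libraries lay above all WT libraries, but cKO 37 exceeded WT 29 by little. The log2 fold change of 0.09 ± 0.06 (6.65% higher, adjusted p = 0.326) did not pass, and its interval ran from 0.976 to 1.17 as a fold.

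The Msx genes, targets of BMP signalling that restrain differentiation at the bone fronts, varied between WT libraries. Msx1 (chromosome 5, 37820491 to 37824585) was 18.2 CPM in WT 14 but 10.7 and 10.5 CPM in WT 27 and WT 29, and 14.4, 15.8 and 16.6 CPM in the cKO libraries. WT 14 was thus the highest of all 6 and the other WT libraries were the lowest. The log2 fold change was 0.25 ± 0.22 (adjusted p = 0.513), and without WT 14 it was 0.55 with an adjusted p of 0.0153, which passed, so that 2 of the 9 genes did, beside 6.91% of all genes. The antisense gene Msx1as overlaps Msx1 (chromosome 5, 37820564 to 37822751) and was likewise highest in WT 14, at 3.53 CPM against 1.64 to 2.29 in the other 5 libraries. Reads of the 2 genes cannot be told apart without knowledge of strand.

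Msx2 (chromosome 13, 53466881 to 53472780), which a gain of function links to suture fusion, was 14.6, 17.6 and 12.9 CPM in WT and 16.5, 16.4 and 16.5 CPM in cKO. The cKO values lay between the WT values. Their coefficient of variation was 0.349%, below the 4.28% that counting alone gives at a mean of 546 read pairs. The closeness of these 3 values therefore does not measure biological spread. The log2 fold change was 0.13 ± 0.11 (adjusted p = 0.439, interval 0.935 to 1.29 as a fold).

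Alx1 (chromosome 10, 103007847 to 103028777), needed for the facial midline and the frontal skull, was 8.69, 9.1 and 11.9 CPM in the WT libraries and 24.2, 16.6 and 23.2 CPM in the cKO libraries. Every cKO library lay above every WT library, with cKO 10 nearest to WT. The rise was 2.15-fold (9.91 ± 1.77 to 21.4 ± 4.15 CPM, 95% interval 1.62 to 2.85, adjusted p = 0.0098). It passed without any single library (log2 fold change 1.01 to 1.26, adjusted p = 0.00335 to 0.0372) and with RLE or upper-quartile scaling. With glmTreat, which asks for more than a 1.2-fold difference, Alx1 missed the threshold (adjusted p = 0.0606).

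Alx4 (chromosome 2, 93642434 to 93681339), the relative of Alx1 whose loss leaves parietal openings, was 227, 201 and 196 CPM in WT and 186, 193 and 171 CPM in cKO. The groups did not overlap, and the gap between WT 29 and cKO 10 was small. Its log2 fold change of -0.18 ± 0.07 (11.8% lower, interval 0.787 to 0.989 as a fold) had an unadjusted p of 0.0344 and an adjusted p of 0.137, and did not pass in any alternative run (adjusted p at least 0.0745).

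Prrx1 (chromosome 1, 163245119 to 163313650), a marker of suture progenitors, was 386, 341 and 352 CPM in WT and 381, 356 and 407 CPM in cKO, and the groups overlapped. Its log2 fold change was 0.08 ± 0.08 (adjusted p = 0.521, interval 0.941 to 1.19 as a fold). Prrx2 (chromosome 2, 30845367 to 30881247), which shares part of the role of Prrx1, was 89.7, 97.1 and 89.3 CPM in WT and 98, 91.9 and 96.8 CPM in cKO. The groups overlapped again, and the log2 fold change was 0.05 ± 0.06 (adjusted p = 0.593, interval 0.948 to 1.14 as a fold). The precision for these abundant genes was high: counting alone gives a coefficient of variation of 0.843% for Prrx1 and 1.67% for Prrx2 in WT, below the 6.45% and 4.75% observed between libraries.

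The ratio within each pair was compared over libraries, a value that library scaling cannot move. The log2 ratio of Alx1 to Alx4 (from CPM) was -4.71, -4.46 and -4.03 in the WT libraries and -2.94, -3.54 and -2.88 in the cKO libraries. The groups did not overlap. In RPKM, Alx4 was 10.3 ± 2.34 times as high as Alx1 in WT and 4.26 ± 1.13 times as high in cKO. The difference in log2 ratio was 1.28 (95% interval from the pooled SD 0.48 to 2.08). An exact two-sided permutation test gave p = 0.1, the smallest possible with 3 libraries against 3, and an adjusted p of 0.4 over the 4 pairs, so no pair could pass.

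The other pairs gave smaller differences. The log2 ratio of Twist1 to Twist2 was 3.88 ± 0.129 in WT and 4.15 ± 0.267 in cKO (difference 0.27, interval -0.20 to 0.74, exact permutation p = 0.2), and in RPKM Twist1 was 11.9 ± 1.07 times as high as Twist2 in WT. Msx1 and Msx2 stood at nearly equal RPKM, with a ratio of 0.996 ± 0.36 in WT and 1.06 ± 0.078 in cKO (difference in log2 ratio 0.15, interval -0.70 to 0.99, exact permutation p = 0.7). For Prrx1 to Prrx2 the log2 ratio was 1.97 ± 0.146 in WT and 1.99 ± 0.0684 in cKO (difference 0.03, interval -0.23 to 0.29, exact permutation p = 1). The longest identical run between the GENCODE transcripts of a pair was 19 bases for the Alx and Prrx pairs, 22 for the Msx pair and 23 for the Twist pair.

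**Figure D3:**
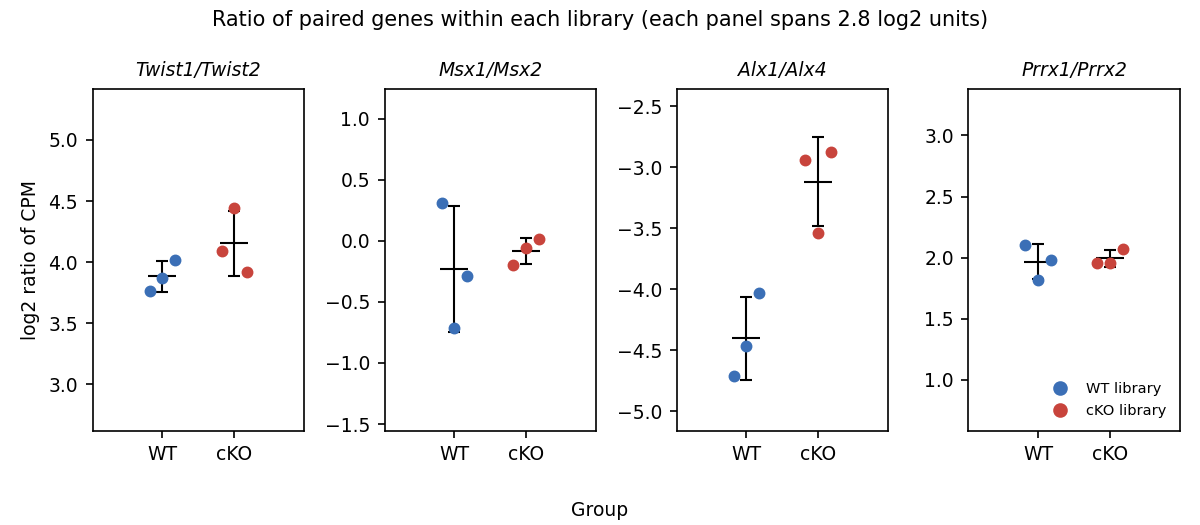
Log2 ratio of CPM within each library for the 4 gene pairs (blue WT, red cKO; horizontal mark and bar: mean and SD, n = 3), with every panel spanning the same height. The WT and cKO points separate for Alx1/Alx4 and overlap for the other 3 pairs.

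The genes whose levels followed each of the 9 most closely over the 6 libraries were read as a description (Pearson r of log2 CPM, the highest of 12440 candidates, which share the same libraries and groups). Zfp760 (r = 0.998), Smug1 (0.996) and Dnajc7 (0.993) were nearest to Alx1. Nearest to Alx4 were Tulp4 (0.993), Kif13a (0.989) and Il17rc (0.989), and nearest to Tcf12 were Inpp1 (0.997), Sbf2 (0.996) and Kdm2a (0.994). Spag1 stood first for Twist1 (0.991), Pdlim4 for Twist2 (0.984), Fbxw9 for Msx1 (0.989), Gtdc1 for Msx2 (0.978), Adamts6 for Prrx1 (0.978) and Mageh1 for Prrx2 (0.993). As many as 587 candidates exceeded an r of 0.9 with Alx1, against 40 with Twist2.

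Genes that act with these factors were taken as 3 companion lists, of which 88 genes were tested: 4 rose, 9 fell and 75 did not pass (14.8% called, beside 12.4% of all genes). Among 8 bHLH partners and inhibitors 1 fell and 7 did not pass, with a median log2 fold change of -0.17. The gene that fell was Id2, whose protein sequesters E proteins such as that of Tcf12. Id2 was 125, 137 and 126 CPM in WT and 102, 95.2 and 101 CPM in cKO (log2 fold change -0.37 ± 0.06, adjusted p = 0.00545). All cKO libraries lay below all WT libraries. The E protein genes Tcf3 (-0.13 ± 0.06) and Tcf4 (0.15 ± 0.06) did not pass (adjusted p = 0.213 and 0.115).

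Of 40 other craniofacial transcription factor genes, 1 rose, 3 fell and 36 did not pass (median 0.05). The homeobox gene Dlx3 had a log2 fold change of -0.57 ± 0.10 (adjusted p = 0.00713) and the forkhead gene Foxc1 one of -0.28 ± 0.08 (adjusted p = 0.0357), and both fell. Pbx2, whose homeodomain protein is a cofactor of other homeodomain proteins, rose from 33.1 ± 1.9 to 39.2 ± 0.676 CPM (log2 fold change 0.24 ± 0.06, adjusted p = 0.03). Foxc1 missed the threshold when any one of WT 14, WT 27, cKO 8 and cKO 37 was left out (adjusted p = 0.0665 to 0.126) and with upper-quartile scaling (0.0526). Pbx2 missed it without each of WT 14, WT 29, cKO 8 and cKO 10 (0.0823 to 0.11).

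Of 40 suture and craniosynostosis signalling genes, 3 rose, 5 fell and 32 did not pass (median -0.06). The ephrin gene Efnb1, mutated in craniofrontonasal syndrome, was 118, 116 and 121 CPM in WT and 84.7, 91.1 and 78.3 CPM in cKO (log2 fold change -0.48 ± 0.07, adjusted p = 0.00229). Another ephrin gene, Efna2, fell from 11.4 ± 1.15 to 7.82 ± 0.455 CPM (adjusted p = 0.00867). Both sets of libraries were fully separated. The BMP inhibitor gene Smad6 (log2 fold change -0.28 ± 0.07), the Wnt coreceptor gene Lrp5 (-0.26 ± 0.07) and Por, which encodes the reductase of P450 enzymes (-0.25 ± 0.06), also fell, with adjusted p = 0.0255, 0.0311 and 0.0237.

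Axin2, a Wnt target that marks suture stem cells, rose by 0.50 ± 0.06, the Notch ligand gene Jag1 by 0.35 ± 0.07 and the mesenchymal receptor gene Pdgfra by 0.25 ± 0.06 (log2 fold changes, adjusted p = 0.00166, 0.013 and 0.0319). Axin2 and Pdgfra also stand in the list of 7 suture and periosteal mesenchyme markers. In that list 2 rose (28.6%, beside 5.96% of all genes) and 5 did not pass. Of those 5, Ctsk was lower on average in cKO (log2 fold change -0.25, edgeR adjusted p = 0.162), and Postn, Gli1, Thy1 and Aspn were higher. The summed level of the list overlapped between groups (4494 to 5192 CPM in WT, 4888 to 5603 in cKO). The receptor genes Fgfr1, Fgfr2 and Fgfr3 did not pass. Smad6, Lrp5, Por, Pdgfra and Jag1 each lost their call without at least 1 library: Jag1 without WT 29 (adjusted p = 0.0592), Por without WT 27, WT 29 or cKO 8 (0.0642 to 0.0795), Pdgfra without each WT library and cKO 8 (0.0881 to 0.14), Smad6 without each of WT 14, WT 29, cKO 8 and cKO 10 (0.0627 to 0.0845) and Lrp5 without each WT library and cKO 10 (0.0514 to 0.119). Correcting for GC content together with gene length also ended the calls of Smad6 (0.175), Lrp5 (0.057) and Foxc1 (0.0665).

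**Figure D4:**
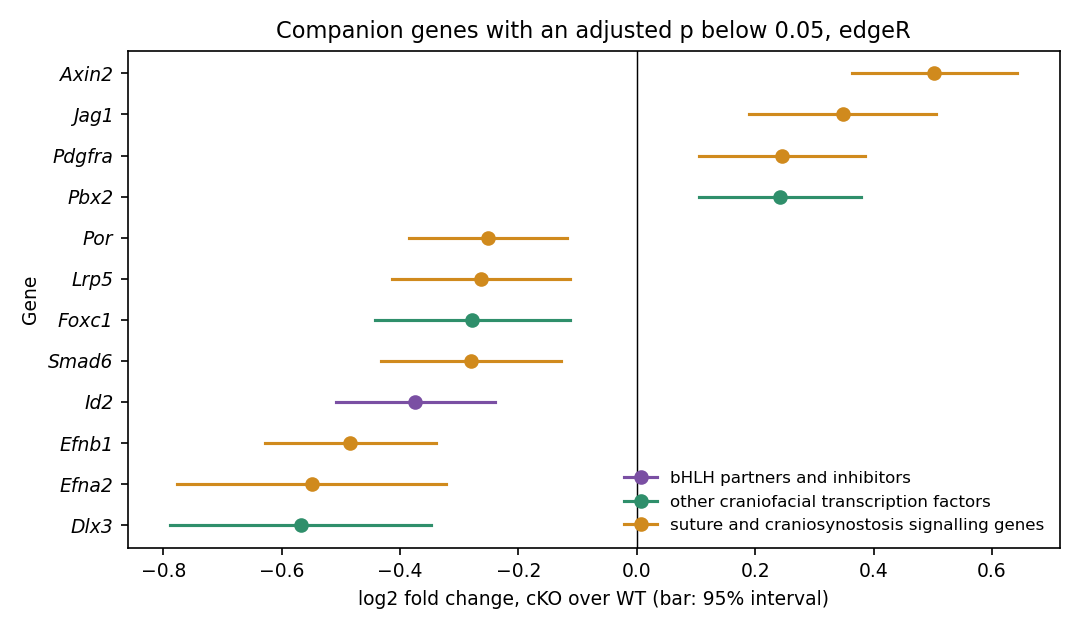
Log2 fold change, cKO over WT, with 95% interval for 12 of the 13 companion genes with an adjusted p below 0.05 (edgeR); colour gives the list. Axin2, Jag1, Pdgfra and Pbx2 lie to the right of 0, and the other 8 genes plotted to the left.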

How the data were processed

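RNA-seq counts per gene of 3 WT and 3 cKO libraries were used as deposited by the authors, with mm10 coordinates. Per the submitters' processing notes, bcl2fastq, TopHat2 2.0.6 and HTSeq were used; the sources used here give no parameters, annotation or use of strand. The RPKM values deposited by the authors served for levels between genes. Every count is even (0 odd counts), so each read pair appears to add 2. Libraries of a group differed beyond counting noise (chi-square per degree of freedom 26.4 to 60 on halved counts).

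Counts were filtered with filterByExpr (minimum count 10), scaled by TMM and tested with the robust edgeR 4.0.16 quasi-likelihood test in R 4.3.3, with Benjamini-Hochberg adjustment over all 16089 genes. Standard errors and 95% intervals come from that model. Alternatives were RLE and upper-quartile factors, no filter, a mean CPM of at least 1, DESeq2 1.42.0, limma 3.58.1 voom, glmTreat against 1.2-fold, an adjusted p below 0.1, halved counts, a gene length offset, each library left out and, chosen after seeing the data, a GC and length offset. Ratios used a prior count of 0.5, with 2 or RPKM as alternatives. The steps were tested on simulated data.

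The 9 genes, the companion and marker lists and the rule for named genes (all 9, companion genes past the threshold up to 8 per list, 3 nearest genes each, of which some are named) were chosen with earlier results of these data known. Tcf3, Tcf4, Fgfr1, Fgfr2, Fgfr3, Sp7, Tubb3, Acp5, Csf1r, Dlx2, Shox2 and further genes of the marker lists were named after their values were seen. Some genes of the lists are counted but not reported by name here.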

Additional observations from a re-analysis of the deposited data

How the results depend on the processing

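No paired analysis was made because the labels give no pairing of WT and cKO libraries. Over 16 alternative fits, 140 of 144 values of the 9 genes kept their direction and their side of the threshold; the exceptions were Alx1 in the glmTreat test, Msx1 without WT 14, Twist2 without cKO 10 (0.015, in a range of -0.31 to 0.015 when each library was left out) and Prrx1 with the GC and length offset (-0.020). The number of the 9 genes that were higher was 0 in the glmTreat test and 1 to 2 when each library was left out (2 without WT 14), and the number lower was 0 in every alternative. Companion genes numbered 1 higher and 0 lower in the glmTreat test, 14 lower at an adjusted p below 0.1, and 1 to 6 higher and 6 to 13 lower when each library was left out (1 higher without WT 29, 2 without cKO 8, 6 higher and 13 lower without cKO 37), against 4 and 9. Calls over all genes moved too, from 1997 (12.4%) to 112 (0.696%) in the glmTreat test, 586 (3.59%) without cKO 8, 783 (4.8%) without WT 29 and 1985 (12.2%) without cKO 37. Leaving out each library, the difference in log2 ratio ran from 1.13 to 1.49 for Alx1/Alx4, 0.12 to 0.39 for Twist1/Twist2, -0.094 (without WT 27) to 0.42 for Msx1/Msx2 and -0.048 (without WT 27) to 0.10 for Prrx1/Prrx2 (-0.011 without cKO 37). The cause of these changes was not tested. The standard error of the log2 fold change was largest for Msx1 (0.22), followed by Alx1 and Twist2 (both 0.17), and a fold between 0.69 and 1.72 lay within the interval of at least 1 gene that did not pass.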

Other observations

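The summed level of each gene pair was computed after the values above were seen. Alx1 and Alx4 together were 34, 32.9 and 30.9 RPKM in WT 14, WT 27 and WT 29 and 32.3, 33.6 and 32.3 RPKM in cKO 8, cKO 10 and cKO 37. The means were 32.6 ± 1.62 and 32.7 ± 0.785 (SD, n = 3 per group, exact two-sided permutation p = 1), a difference of 0.107 RPKM with an interval of -2.78 to 2.99 from the pooled SD. Alx1 made up 9.12% ± 1.99 of that sum in WT and 19.6% ± 3.76 in cKO, and its share was higher in every cKO library than in every WT library (exact permutation p = 0.1, the smallest possible). RPKM carries no TMM scaling, and the interval does not show that the sum was the same.

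For the other pairs the sums were 43.4 ± 0.526 and 45.7 ± 3.31 RPKM for Twist1 and Twist2, 10.2 ± 1.74 and 11.7 ± 0.917 for Msx1 and Msx2, and 96.6 ± 5.65 and 101.5 ± 5.23 for Prrx1 and Prrx2 in WT and cKO, with exact permutation p = 0.4, 0.2 and 0.4. The homeobox gene Dlx2, at 0.492, 0.458 and 0.5 CPM in WT and 0.2, 0.226 and 0.26 CPM in cKO, had the lowest log2 fold change in its companion list (-1.07 ± 0.33) and did not pass (edgeR adjusted p = 0.0592). Its values rest on 12 to 46 counts per library, to which each read pair appears to add 2. The highest log2 fold change in that list was of similar size, 1.12 ± 0.48 for Shox2, which did not pass either (edgeR adjusted p = 0.159).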
